A study of Homo sapiens with 4 samples.

Results

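The immediate early transcription factors of the EGR family were described together with the NAB corepressors that bind them, the NR4A orphan receptors, the upstream factor SRF and the effector gene ARC. The 10 genes were taken from the deposited expression table by exact symbol: EGR1, EGR2, EGR3, EGR4, NAB1, NAB2, NR4A1, NR4A2, SRF and ARC. Each had 1 row among the 33117 rows of the table, and 7 of the 10 reached the mean of 1 FPKM at which genes were tested.

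EGR proteins are zinc finger transcription factors that bind GC-rich sites. Their genes are switched on within minutes of growth factor, serum or stress signals, largely through SRF, which binds CArG boxes together with ETS-family cofactors that ERK phosphorylates. NAB1 and NAB2 bind EGR proteins and repress transcription at their sites, and NAB2 is itself a known EGR target, which makes a negative feedback loop. NR4A receptors are orphan nuclear receptors of the immediate early class, and ARC, best known from neurons, is a cytoskeleton-associated protein whose gene is induced by activity and by SRF and related factors.

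RNA came from HT29, an established human colorectal adenocarcinoma cell line grown in serum-containing medium. The control group was 2 libraries of untreated cells, for which no vehicle is named. The treated group was 2 libraries of cells kept for 2 h with 100 µM fluorouracil (5FU), a pyrimidine analogue used as chemotherapy. Nothing in the labels tells whether replicates were separate cultures. The p-values below refer to the spread of the libraries alone, and this spread may be technical. In limma the spread is in part pooled over genes. Its SEs, intervals and p-values therefore do not measure a gene's own spread alone.

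Values were taken as FPKM, fragment counts divided by transcript length and by the library's mapped fragments, which makes genes of different length comparable within a library. The depth in fragments is unknown. Fluorouracil replicate 2 stood apart from the other libraries: the SD across 12462 genes of its log2 difference from each was 1.78 to 1.82, against 0.411 to 0.578 among the other 3. Its FPKM summed to 764348, against 426453 to 440023 in the others, and its values are written with fewer digits (median 6, against 16 in each other library). Whether it was processed like the others is not given in the sources used here. Its deviation followed base composition. The median log2 change from the untreated mean was -0.86 in genes whose transcript had under 40% GC and 1.5 in those with 65% GC or more. The same medians were -0.03 and 0.03 in fluorouracil replicate 1. The changes of the tested genes are therefore also given per treated library after this GC and length trend was removed, and its part in the results was not tested. Of 12 colon epithelial markers, 10 were tested, with EPCAM at 345 to 407 FPKM, while CDX1 and CDX2 stayed below 1 FPKM in every library. All 4 endothelial markers and 5 of 6 fibroblast markers were below 1 FPKM throughout. Of the leukocyte markers, PTPRC reached at most 0.00907 FPKM, whereas LYZ, which encodes lysozyme, had 1620 to 1830 FPKM.

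EGR1, EGR2 and SRF are shown first by their promoters, because CArG boxes in these windows are where SRF is known to act. Sequences are from RefSeq (GRCh38.p14), 250 bases before to 50 bases after an annotated transcript start, 5′ to 3′ on the gene's strand. Of the 10 genes, 7 had an entry, and for genes with several starts the window with the most matches is printed. The motifs searched on both strands were the CArG box by name, the CRE half-site TGACG, the EGR site as GCGTGGGCG or GCGGGGGCG, and the NR4A response element AAAGGTCA. Capitals mark every match. The printed windows lie at chr5:138465229-138465528 on the plus strand for EGR1, chr10:62816317-62816616 on the minus strand for EGR2 and chr6:43171019-43171318 on the plus strand for SRF.
EGR1: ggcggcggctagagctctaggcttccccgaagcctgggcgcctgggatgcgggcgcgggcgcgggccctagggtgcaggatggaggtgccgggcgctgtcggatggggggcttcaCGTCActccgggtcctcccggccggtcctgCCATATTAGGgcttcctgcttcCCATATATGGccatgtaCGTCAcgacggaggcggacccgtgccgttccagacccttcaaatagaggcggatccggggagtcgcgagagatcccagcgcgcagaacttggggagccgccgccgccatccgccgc
EGR2: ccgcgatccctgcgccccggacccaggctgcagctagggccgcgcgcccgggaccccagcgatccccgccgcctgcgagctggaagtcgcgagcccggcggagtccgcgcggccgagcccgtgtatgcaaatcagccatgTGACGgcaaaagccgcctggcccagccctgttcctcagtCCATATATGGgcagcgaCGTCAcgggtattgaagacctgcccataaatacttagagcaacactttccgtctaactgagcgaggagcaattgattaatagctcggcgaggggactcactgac
SRF: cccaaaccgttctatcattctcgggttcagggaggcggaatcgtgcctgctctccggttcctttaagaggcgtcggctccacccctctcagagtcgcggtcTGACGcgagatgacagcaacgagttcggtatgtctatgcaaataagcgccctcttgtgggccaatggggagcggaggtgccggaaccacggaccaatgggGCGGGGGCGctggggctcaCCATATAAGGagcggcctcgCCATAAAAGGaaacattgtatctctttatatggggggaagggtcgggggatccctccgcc
The EGR1 window held 2 CArG boxes, from -105 to -96 and from -83 to -74, counted from 0 at the transcript start, with a CRE half-site on either side of the pair. The printed EGR2 window, at start 3 of 3, held 1 CArG box between 2 CRE half-sites. The windows at EGR2 starts 1 and 2 had no match. The printed SRF window held 2 CArG boxes, the second of them ending at -1, together with 1 EGR site and 1 CRE half-site. The window at the other SRF start had no match. A CArG box was present in 1.29% of 35116 promoter windows of this length, a CRE half-site in 24.6%, an EGR site in 5.77% and the NR4A response element in 1.22%. The EGR4 window had 2 CRE half-sites, and the windows at both NR4A1 starts had no match to these letters.

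**Figure D1:**
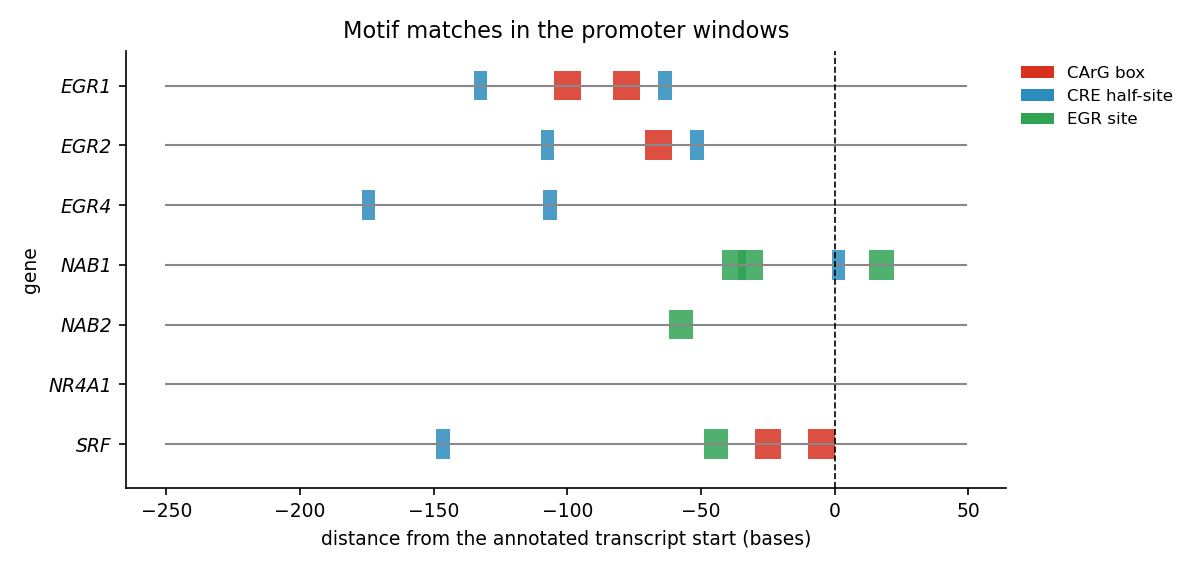
Motif matches in 7 promoter windows, for each gene the window with the most matches, drawn by distance in bases from the annotated transcript start (dashed line at 0). Boxes mark CArG boxes, CRE half-sites and EGR sites on either strand: CArG boxes are in the EGR1, EGR2 and SRF windows, and EGR sites in those of NAB1, NAB2 and SRF.

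EGR1, the best studied EGR factor, was the most abundant of the 10 transcripts after fluorouracil and had the highest treated values of its family. Untreated replicates 1 and 2 gave 9.54 and 6.53 FPKM for EGR1, and fluorouracil replicates 1 and 2 gave 59.7 and 68.0 FPKM. Both treated libraries lay far above both untreated ones, by 7.43-fold and 8.46-fold over the untreated mean, although the untreated pair itself was uneven. Among tested genes, EGR1 stood above 50.5% and 39.5% of genes by level in the untreated libraries and above 91.0% and 88.0% in the treated libraries. These ranks do not depend on a library's total. Its log2 change was 3.0 (SE 0.33, 95% interval 2.11 to 3.89), with an unadjusted limma p of 0.000593 and a limma adjusted p of 0.671 over all 12462 genes, so EGR1 did not pass. Only 38 of the tested genes had a larger log2 change in fluorouracil replicate 1, and 224 in replicate 2. After GC and length trend removal, the log2 changes of EGR1 were 2.88 and 2.26 in replicates 1 and 2. In bulk RNA, a change in the share of cells that express a gene and a change in RNA per cell cannot be told apart. EGR1 spans 138465490 to 138469315 on the plus strand of chromosome 5 (GENCODE 29, GRCh38, as all gene positions here).

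**Figure D2:**
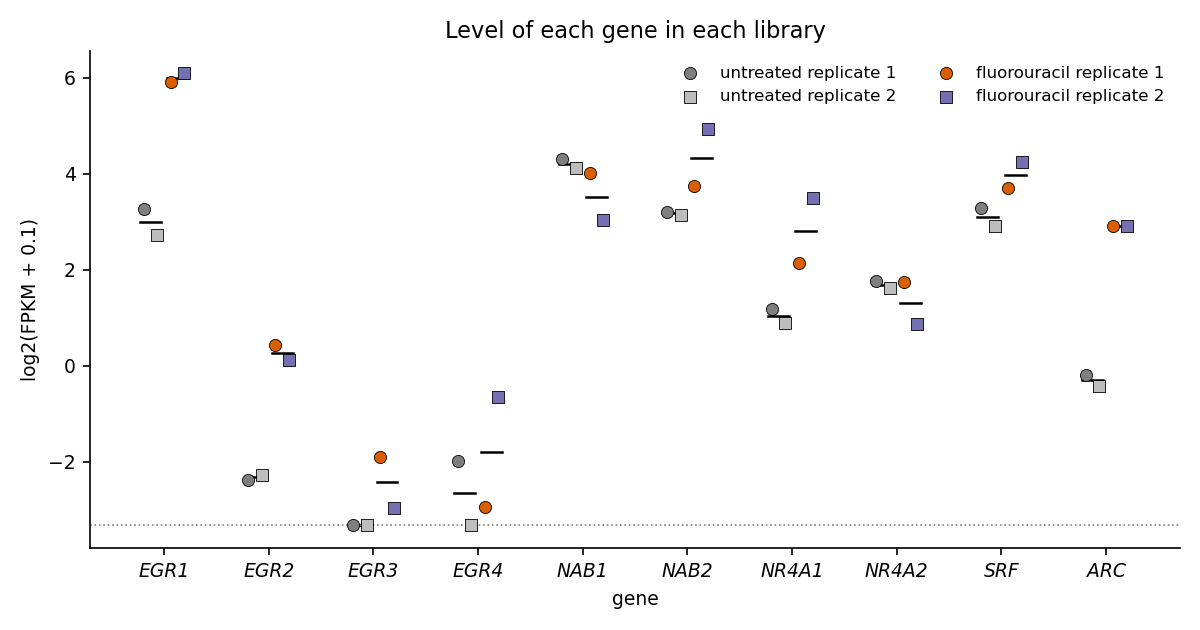
Level of the 10 genes in each library as log2(FPKM + 0.1), with short lines at the mean of each pair and a dotted line at the value of a gene listed at 0. Treated points of EGR1, EGR2, EGR3, NAB2, NR4A1, SRF and ARC lie above both untreated points, those of NAB1 lie below, and those of EGR4 and NR4A2 overlap.

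EGR2, a factor known for myelination and lymphocyte anergy, was weakly expressed and had treated values about as far above its untreated ones, in proportion, as EGR1. It had 0.0909 and 0.108 FPKM in the untreated libraries, 1.25 FPKM in fluorouracil replicate 1 and 0.979 FPKM in replicate 2. The groups did not overlap, and the ratios to the untreated mean were 12.6 and 9.85. Its mean of 0.607 FPKM kept it out of the test. In a fit with no filter on low values its log2 change was 2.60 (SE 0.46, limma adjusted p = 0.694). On the log2 scale used, the pseudocount of 0.1 is as large as the untreated values of EGR2.

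EGR3 and EGR4 were near the lower end of the scale. EGR3 was listed at 0 in both untreated libraries and had 0.168 and 0.0289 FPKM in fluorouracil replicates 1 and 2, so no fold change is given. EGR4 had 0.151 and 0 FPKM without the drug and 0.0298 and 0.535 FPKM with it. The EGR4 values of the groups overlapped, and the treated libraries lay on opposite sides of untreated replicate 1. EGR2 lies at 62811996 to 62919900 on chromosome 10, EGR3 at 22687659 to 22693302 on chromosome 8 and EGR4 at 73290929 to 73293705 on chromosome 2, all on the minus strand. Within the EGR family, EGR1 made up nearly all of the summed level, which was 9.78 and 6.64 FPKM without the drug and 61.2 and 69.5 FPKM with it.

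The NAB corepressors lay on opposite sides of their untreated values. NAB2 had higher values in both treated libraries and NAB1 had lower values in both, and each difference was much larger in fluorouracil replicate 2 than in replicate 1. The untreated values of NAB2 were 9.11 and 8.74 FPKM, and the treated values were 13.2 FPKM in replicate 1 and 30.4 FPKM in replicate 2. Relative to the untreated mean these were 1.48-fold and 3.40-fold, outside the narrow untreated pair in both cases. The log2 change of NAB2 was 1.16 (SE 0.49, 95% interval -0.16 to 2.48, limma adjusted p = 0.671). With the trend removed, NAB2 had log2 changes of 0.56 and 0.43 in replicates 1 and 2, so the distance between the treated libraries narrowed, and the groups still did not overlap.

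The untreated values of NAB1 were 19.6 and 17.2 FPKM, and the treated values were 16.1 FPKM in replicate 1 and 8.07 FPKM in replicate 2. Replicate 1 was below untreated replicate 2 by less than the untreated libraries differed from each other. The log2 change was -0.68 (SE 0.43, 95% interval -1.85 to 0.49, limma adjusted p = 0.671), and -0.19 and -0.52 per treated library with the trend removed. The transcript of NAB1 has 39.9% GC and that of NAB2 62.6%, the lowest value and the highest but for ARC among the 7 tested genes.

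The NAB promoters are printed because EGR proteins are known to bind GC-rich sites and NAB2 is a known EGR target. The printed NAB1 window lies at chr2:190648645-190648944 and the NAB2 window at chr12:57088864-57089163, both on the plus strand of GRCh38.p14, with matches in capitals as above.
NAB1: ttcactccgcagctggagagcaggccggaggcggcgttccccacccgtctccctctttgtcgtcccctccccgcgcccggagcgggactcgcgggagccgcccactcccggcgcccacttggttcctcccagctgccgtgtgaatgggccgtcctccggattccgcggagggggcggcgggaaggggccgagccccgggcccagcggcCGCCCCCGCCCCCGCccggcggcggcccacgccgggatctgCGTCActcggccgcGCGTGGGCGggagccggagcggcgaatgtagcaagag
NAB2: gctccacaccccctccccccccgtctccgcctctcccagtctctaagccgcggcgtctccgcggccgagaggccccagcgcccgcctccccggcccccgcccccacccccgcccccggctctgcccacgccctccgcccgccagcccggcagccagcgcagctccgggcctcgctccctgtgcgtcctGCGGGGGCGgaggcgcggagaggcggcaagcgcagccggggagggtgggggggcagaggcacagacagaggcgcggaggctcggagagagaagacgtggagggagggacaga
The NAB2 window held 1 EGR site, from -62 to -54. The printed NAB1 window held 3, of which those from -42 to -34 and from -36 to -28 overlap, and 1 CRE half-site. The window at NAB1 start 2 overlaps the printed window and held the same 3 EGR sites, and that at start 3 held none. An EGR site was thus present both in the gene with higher and in the gene with lower treated values.

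Ratios within a library do not depend on that library's total. The summed EGR level was 0.341 and 0.256 of the summed NAB level in the untreated libraries, and 2.09 and 1.81 times the NAB level in the treated ones. NAB transcripts therefore exceeded EGR transcripts, per length, in both untreated libraries, and EGR transcripts exceeded NAB transcripts in both treated libraries. The difference in log2 ratio was 2.72, with an SD of 0.29 in the untreated pair and 0.15 in the treated pair (n = 2 each). It exceeded the replicate spread, and was 2.54 with the trend removed. An exact two-sided permutation test gave p = 0.333, the smallest that 2 against 2 libraries allow.

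The ratio of NAB2 to NAB1 was 0.466 and 0.508 untreated, 0.820 in fluorouracil replicate 1 and 3.76 in replicate 2. NAB1 was the more abundant corepressor transcript in 3 libraries and NAB2 in fluorouracil replicate 2. The difference in log2 ratio was 1.85 (exact two-sided permutation p = 0.333), with an SD of 1.55 in the treated pair. It was 0.86 with the trend removed, 0.75 without fluorouracil replicate 2 and 2.95 without fluorouracil replicate 1. EGR1 relative to NAB2, a ratio chosen after the values were seen, was 1.05 and 0.748 untreated and 4.52 and 2.24 treated.

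**Figure D3:**
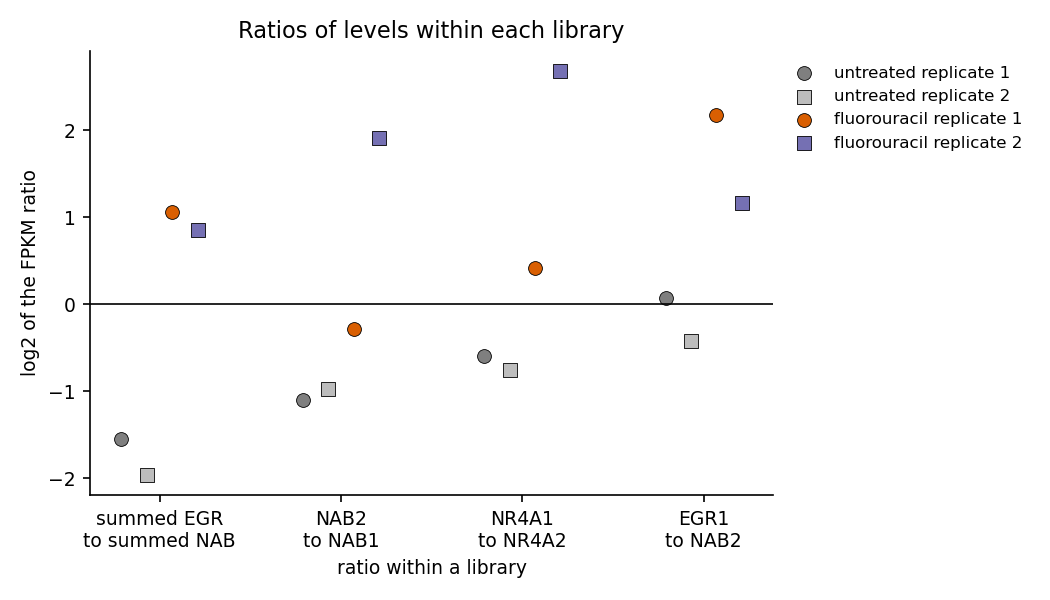
Ratios of FPKM within each library on a log2 scale, where 0 means equal levels, for the 2 untreated and 2 fluorouracil libraries. The summed EGR to summed NAB ratio lies below 0 in both untreated and above 0 in both treated libraries, and the treated replicates lie close together only for that ratio.

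The NR4A receptors differed from each other. NR4A1, also called NUR77, had non-overlapping higher treated values, and NR4A2, also called NURR1, did not. NR4A1 had 2.18 and 1.76 FPKM in untreated cells, with 4.33 and 11.1 FPKM in fluorouracil replicates 1 and 2. Both treated values were above the untreated ones, by 2.2-fold and 5.63-fold over their mean, and the replicates differed from each other by more than the smaller of these steps. The log2 change of NR4A1 was 1.78 (SE 0.56, 95% interval 0.26 to 3.29), with an unadjusted limma p of 0.0308 and a limma adjusted p of 0.671. With the trend removed it had log2 changes of 1.12 and 1.52, and it stayed above 97.7% and 94.6% of the changes of all genes in that fit.

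NR4A2 had 3.29 and 2.97 FPKM in untreated cells, 3.24 FPKM in treated replicate 1 and 1.72 FPKM in treated replicate 2. Replicate 1 lay within the untreated pair and replicate 2 below it. The log2 change was -0.39 (SE 0.46, 95% interval -1.63 to 0.85, limma adjusted p = 0.701), an interval that includes 0. Per treated library NR4A2 had log2 changes of 0.05 and -0.82 as deposited, and of 0.02 and -0.99 with the trend removed. The ratio of NR4A1 to NR4A2, chosen after the values were seen, was 0.661 and 0.592 untreated and 1.34 and 6.42 treated, so the order of the receptors was reversed in both treated libraries. Its log2 difference was 2.23, or 1.86 with the trend removed (exact two-sided permutation p = 0.333 for the former), with an SD of 1.60 in the treated pair. Leaving out treated replicate 2 gave a log2 difference of 1.10, and leaving out treated replicate 1 gave 3.36. NR4A1 spans 52022832 to 52059507 on the plus strand of chromosome 12, and NR4A2 156324432 to 156342348 on the minus strand of chromosome 2. Their relative NR4A3 was listed at 0 in both untreated libraries, with 0.356 and 0.0873 FPKM after treatment.

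SRF, the factor that binds CArG boxes in immediate early and cytoskeletal promoters, had a smaller step. SRF had 9.61 and 7.44 FPKM in untreated cells, with 13 and 18.8 FPKM in fluorouracil replicates 1 and 2. Both treated values were above both untreated ones, by 1.52-fold and 2.2-fold over the untreated mean. The log2 change was 0.88 (SE 0.34, 95% interval -0.05 to 1.80, limma adjusted p = 0.671). With the trend removed, SRF had log2 changes of 0.62 in replicate 1 and 0.08 in replicate 2, and the groups overlapped. SRF lies on the plus strand of chromosome 6, from 43171299 to 43181507, and its transcript has 60.9% GC.

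ARC had a log2 change close to that of EGR1, larger as deposited and smaller with a pseudocount of 1 (2.30 against 2.86) or with the trend removed (2.45 against 2.57). Untreated cells gave 0.779 and 0.646 FPKM of ARC, treated cells 7.38 and 7.46 FPKM. The ratio to the untreated mean was 10.4 in fluorouracil replicate 1 and 10.5 in replicate 2. Its log2 change was 3.21 (SE 0.37, 95% interval 2.2 to 4.23), with an unadjusted limma p of 0.000752 and a limma adjusted p of 0.671. ARC reached the mean of 1 FPKM needed for testing only through its treated values. The log2 changes of ARC with the trend removed were 3.21 and 1.69, so the replicates lay apart, and the groups did not overlap. Its transcript has 66.8% GC, the highest of the 10, in a range of GC that holds 409 of the tested genes. ARC lies at 142611044 to 142614472 on the minus strand of chromosome 8. Neuronal markers were low, with SNAP25 at 0 in every library, RBFOX3 at 0.252 FPKM or less and 4 of 5 below 1 FPKM throughout. The summed level of these 5 was 3.27 and 2.23 FPKM without the drug and 8.34 and 32.7 FPKM with it, nearly all of it TUBB3, a tubulin gene, and its part in the result was not tested.

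**Figure D4:**
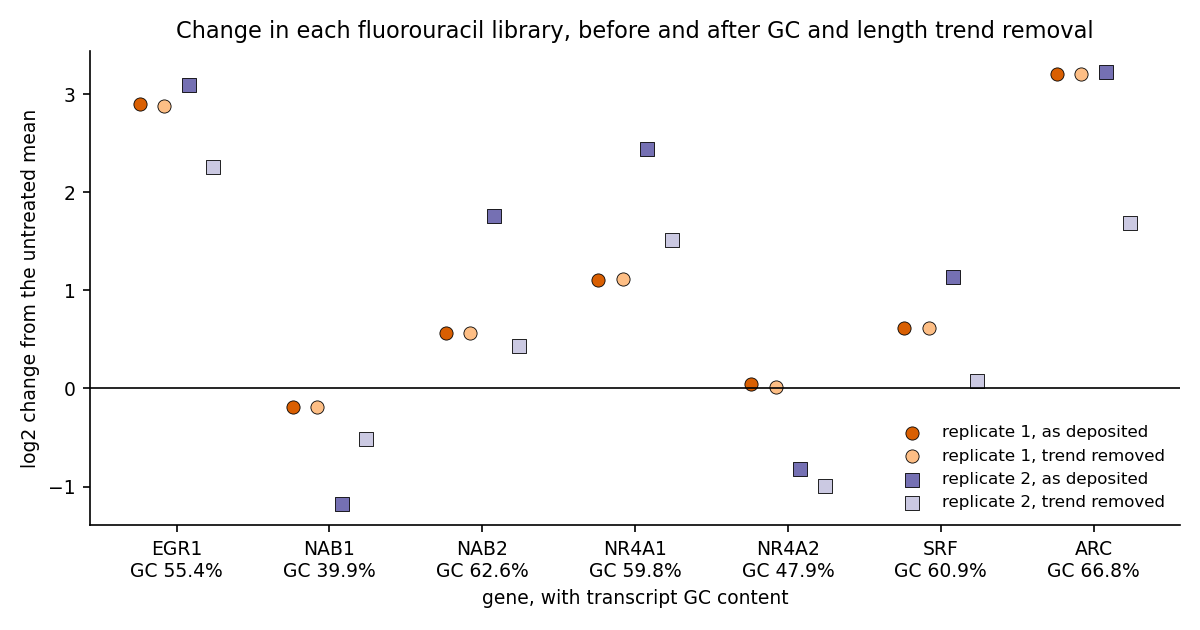
Log2 change from the untreated mean in each fluorouracil library for the 7 tested genes, as deposited and after GC and length trend removal, with each gene's transcript GC content. In replicate 2 the removal lowers the points of the GC-rich genes and also that of NR4A2, and raises that of NAB1, while replicate 1 barely moves.

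The order of the levels differed between the groups. In untreated cells NAB1 was highest, and SRF, EGR1 and NAB2 followed with values that overlapped between them, from 6.53 to 9.61 FPKM. NR4A2, NR4A1 and ARC came next without overlap, ahead of EGR2, EGR4 and EGR3, which were all at 0.151 FPKM or less. In treated cells EGR1 was highest in both libraries. NAB2, SRF and NAB1 overlapped below it, NAB1 also overlapped with NR4A1 and NR4A1 with ARC, and NR4A2 was lower than all of these. EGR2 followed, ahead of EGR3 and EGR4, whose values overlapped.

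Of the 10 genes, 7 had higher values in both treated libraries, 1 had lower values and 2 overlapped. The higher ones include the untested EGR2 and EGR3, and EGR3 was listed at 0 in both untreated libraries. Among the 7 tested genes these counts were 5, 1 and 1, and only these match the shares below. Over all 12462 tested genes, 24.4% were higher in this sense and 19.3% lower. A log2 change of at least 1 in each treated library was found in EGR1, ARC and NR4A1, and in 1.89% of all tested genes. ARC is in each count of higher genes in this paragraph, though it was tested only through its treated values. None of the 7 passed limma after adjustment, as none of all tested genes did (0%). Without fluorouracil replicate 2 limma called 0 of the 7 and 0.144% of all genes, and without fluorouracil replicate 1 it called all 7 and 66.9% of all genes, in fits where the lone treated library is assumed to vary like the untreated pair. At an unadjusted p below 0.05 there were 3 of the 7 and 400 of all genes, or 3.21%. The genes were chosen with earlier results of these data known, so these counts are a description. With the trend removed, 4 of the 7 were higher, 1 lower and 2 overlapped, where 21.7% of all genes were higher and 25.3% lower.

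**Figure D5:**
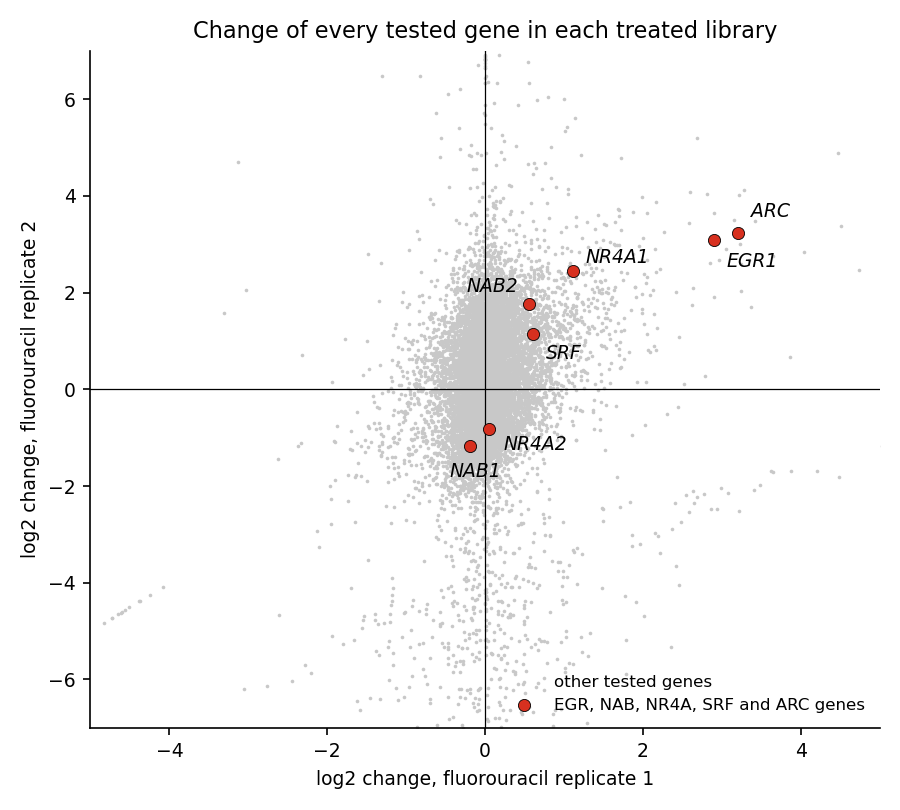
Log2 change from the untreated mean of 12462 tested genes in fluorouracil replicate 1 (horizontal) and replicate 2 (vertical); 167 genes lie outside the axes. EGR1 and ARC stand at about 3 on both axes, NR4A1, NAB2 and SRF are further from 0 in replicate 2, and NAB1 and NR4A2 lie below 0 in replicate 2.

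The genes with the pattern most like EGR1 were sought by the distance between log2 values of the 4 libraries, each centred on the gene's untreated mean. The distance was taken on deposited values only. ARC was the nearest of all tested genes, at a distance of 0.395. With the trend removed, the log2 change in fluorouracil replicate 2 was 1.69 for ARC and 2.26 for EGR1. The next 5 were FAM71F2, SERTAD1, ATF3, GADD45B and LOC101926900, at distances from 0.473 to 0.592. ARC, FAM71F2 and LOC101926900 were below 1 FPKM in both untreated libraries and were tested only through their treated values. ATF3, which encodes a factor induced by stress, had 2.54 and 2.05 FPKM without and 17.1 and 14.5 FPKM with the drug. GADD45B, a stress sensor of the GADD45 family, had 2.92 and 1.19 against 18.3 and 15.7 FPKM. The others of the 10 were farther away: NR4A1 at 1.92 with 98 genes nearer, EGR1 itself included, NAB2 at 2.72, SRF at 3.01, NR4A2 at 4.85 and NAB1 at 5.27.

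The wider SRF and EGR network was described by lists, and no member of any list passed limma after adjustment. Of 10 other SRF-dependent immediate early genes, all tested, 8 were higher in both treated libraries and 0 lower, where 24.4% of all tested genes were higher and 19.3% lower. Their median log2 change was 1.16, against 0.10 over all tested genes. With the trend removed it was 0.67, against 0.004 over all genes, and 6 were higher and 2 lower, where 21.7% and 25.3% of all genes were. DUSP1, a phosphatase that inactivates MAP kinases, had 2.98 and 2.29 FPKM without and 6.28 and 9.07 FPKM with the drug. IER2, a nuclear immediate early protein, had 19.6 and 19.9 against 32.3 and 80.9 FPKM. Of 11 tested cytoskeletal genes that SRF controls with MRTF cofactors, 1 was higher, 0 lower and 10 overlapped, and with the trend removed 2 were higher and 3 lower, against the same shares of all genes. The difference between these lists was not tested. The gene with higher values as deposited was TAGLN, an actin-binding protein, with 2.17 and 2.84 FPKM in untreated and 6.49 and 10.8 FPKM in treated cells. The list's median log2 change was -0.11 in replicate 1 and 1.08 in replicate 2, and 0.03 over both with the trend removed. Among 4 tested SRF cofactors, MKL1, a MRTF, and ELK1, an ETS-family cofactor, were higher by range. ELK1 had 21.0 FPKM in each library without the drug and 22.9 and 28.9 FPKM with it, a log2 change of 0.29 as deposited and -0.21 with the trend removed.

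Of 18 textbook EGR target genes, 13 were tested, and 5 were higher, 1 lower and 7 overlapping, where 24.4% of all tested genes were higher and 19.3% lower. After removal of the trend 5 were higher and 2 lower, where 21.7% and 25.3% of all genes were. Their median log2 change was 0.40, against 0.10 over all genes, and 0.13 with the trend removed. CDKN1A, an inhibitor of cyclin-dependent kinases, had 14.1 and 10.9 FPKM without and 29.3 and 66.1 FPKM with the drug. PDGFA, a growth factor chain, had 3.38 and 2.77 against 4.61 and 11.4 FPKM. CCND1, which encodes cyclin D1, was the gene with lower values, at 32.7 and 26.1 against 20.0 and 17.1 FPKM.

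The signalling and corepressor partners are read against the same shares, 24.4% of all tested genes higher and 19.3% lower. Of 17 tested genes of the ERK cascade and CREB input, 2 were higher, 4 lower and 11 overlapping, with a median log2 change of -0.004. With the trend removed, 1 was higher and 5 lower, where 21.7% and 25.3% of all genes were. ATF1, a CREB relative, had 27.8 and 24.6 FPKM without and 23.5 and 9.77 FPKM with the drug. Its log2 change was -0.78 as deposited and -0.44 with the trend removed. Of 13 subunits of NuRD, the chromatin remodelling complex that NAB2 recruits, 1 was higher, 2 lower and 10 overlapping (median 0.07). With the trend removed, 3 of these subunits were higher and 4 lower. HDAC2, a histone deacetylase of that complex, had 38.6 and 38.5 against 34.4 and 20.2 FPKM, a log2 change of -0.55 as deposited and -0.01 with the trend removed. Of the NR4A partners, RXRA and RXRB were tested, and RXRB was higher by range, at 12.4 and 13.3 against 15.5 and 21.7 FPKM, with a log2 change of 0.51 as deposited and -0.03 with the trend removed. Of 14 reference genes, 6 were higher and 2 lower, against 24.4% and 19.3% of all tested genes, with median log2 changes of 0.05 in fluorouracil replicate 1 and 0.73 in replicate 2, where the medians over all tested genes were 0.008 and 0.19.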

How the data were processed

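The authors deposited 1 table with a gene symbol and a value for each of 4 libraries of total RNA. The table names no unit, and the deposited values were taken as FPKM because the submitters' processing notes name Cufflinks, which estimates FPKM. These notes give TopHat2 2.1.0 and Cufflinks 2.2.1, and the builds hg38 and mm10 are named without a role. Which annotation was used, and whether libraries were scaled to each other, is not given in the sources used here. Of 33117 rows, 28 without a symbol were left out.

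Values were taken as log2(FPKM + 0.1). This scale understates changes of weak genes. Genes whose 4 libraries averaged 1 FPKM or more were compared with limma 3.58.1 (R 4.3.3), with a trended prior, 2 residual degrees of freedom, two-sided, with Benjamini-Hochberg adjustment over 12462 genes and a threshold of 0.05. The limma step was tried on simulated data in which every library had the spread of the untreated pair. No simulated library stood apart as fluorouracil replicate 2 does, so those runs cannot show how the test behaves here. Higher, or lower, by range means that the treated and untreated values of a gene did not overlap. The trend of each library with GC and length was removed by loess (span 0.3) over 11744 genes, 94.2% of those tested, matched to the longest GENCODE 29 transcript. Ratios were compared by exact permutation (scipy 1.17.1).

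In fluorouracil replicate 2, 78 rows from MFRP to MICALL2 matched the other libraries better when moved by 1 row (r of 0.913 against 0.410 over 79 rows). Around each of the 10 genes the rows matched best in place (r from 0.913 to 0.973). The genes, lists and tests were chosen with earlier results of these data known. Named were the 10 genes, the 5 nearest to EGR1, and up to 4 non-overlapping genes of each list with the largest changes, of which examples are given. NR4A3 and the markers were named after their values were seen. Some genes chosen by this rule are not reported here. Alternatives were other pseudocounts, filters and scalings, a replicate block and each library left out.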

Additional observations from a re-analysis of the deposited data

How the results depend on the processing

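The count of genes called was 0 under other pseudocounts, filters and scalings, with the GC and length trend removed, and without the 78 rows from MFRP to MICALL2, an alternative added after the data were seen. Leaving out 1 library gave 0 to 8337 genes, and 0 to 7 of the 7 tested genes described here. Without fluorouracil replicate 1, limma called 8337 genes (66.9%) and all 7. Without fluorouracil replicate 2 it called 18 (0.144%) and 0 of the 7, with adjusted p of 0.0853 for ARC and 0.109 for EGR1. 

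The replicate numbers are not stated to pair the libraries, and same-numbered libraries did not deviate together (r = -0.048 across genes), so no crossed pairing was run. With a replicate block, limma called 339 genes, of which 78 were higher (0.626%), and 2 of the 7. These were EGR1 (limma adjusted p = 5.09e-05) and ARC (limma adjusted p = 0.00158), which entered the test only through its treated values. In that fit the p-values rest on a spread pooled over genes. They do not measure the spread of EGR1 or ARC between their own libraries.

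Over 12 or 13 alternatives, the log2 change ranged from 2.57 to 3.27 for EGR1, 2.30 to 3.88 for ARC, 1.11 to 2.44 for NR4A1, 0.50 to 1.76 for NAB2, 0.35 to 1.14 for SRF and -1.18 to -0.19 for NAB1. NR4A2 went from -0.82 to 0.05, the latter without fluorouracil replicate 2, where the sign was reversed; the cause was not tested. The log2 ratio difference of summed EGR to summed NAB ranged from 2.51 to 2.92 with a library left out, and was 2.72 after quantile normalization and with the replicate block. For NAB2 to NAB1 that range was 0.75 to 2.95, and for NR4A1 to NR4A2 1.10 to 3.36. As the depth is unknown, no counting interval is given for the low values of EGR2, EGR3 and EGR4.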
